A study of Mus musculus with 22 samples.

Results

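Oxtr encodes the oxytocin receptor, and its transcript was followed through 22 libraries of sorted mouse pancreatic β-cells. It is 1 gene of the 52327 in the count table and 1 of the 14064 that were tested for expression differences. It was chosen by its CPM values in the 4 groups of these same libraries, so they are given as a description, without a test. Every mouse was a male of Mix background aged 3 months with the genotype GluDTR+, SstDTR htz, PpyDTR htz, which places the diphtheria toxin receptor in the glucagon, somatostatin and pancreatic polypeptide cells of the islet. Mice of the DT groups had received diphtheria toxin and were taken 1 month after ablation, while the labels give the other mice as Control without naming an injection. Fasted mice went 8 h without food, and refed mice had the same 8 h fast followed by 2 h of feeding. There were 5 fasted and 5 refed control mice and 6 fasted and 6 refed DT mice, with 1 library from each. Mice are named below by the numbers in their labels.

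The oxytocin receptor is a G protein-coupled receptor for the neuropeptide oxytocin, best known from the uterus, the mammary gland and the brain. It signals mainly through Gq, which activates phospholipase C. The enzyme splits a membrane lipid into inositol trisphosphate, which releases calcium from the endoplasmic reticulum, and diacylglycerol, which activates protein kinase C. In β-cells this branch is known to increase insulin secretion when glucose is high, as it does for muscarinic and fatty acid receptors. Vasopressin, the closest relative of oxytocin, acts on sister receptors of the same family.

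Oxtr lies on the minus strand of chromosome 6 at chr6:112473683-112489943 in GRCm38.p6, a gene of 16261 bases whose exons together cover 4790 bases. In the annotation of GENCODE mouse release 21, exon 1 of the main transcript (chr6:112488879-112489943, 1065 bases) holds the 5′ untranslated region and 919 coding bases. Exon 2 (chr6:112473683-112477321, 3639 bases) holds the last 245 coding bases and the long 3′ untranslated region. No other gene of that annotation overlaps Oxtr, so none is annotated to share its exons.

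The sequence in front of the gene is shown because Oxtr levels differed so widely between the fed states. The first line gives the 132 bases before the GENCODE start (chr6:112489944-112490075), and the second gives 30 bases within exon 1 (chr6:112489851-112489880), in the 5′ untranslated region, with an E-box, CACGTG, in capitals. Both are read 5′ to 3′ on the gene's own strand and come from RefSeq on GRCm38.p6.
Oxtr upstream: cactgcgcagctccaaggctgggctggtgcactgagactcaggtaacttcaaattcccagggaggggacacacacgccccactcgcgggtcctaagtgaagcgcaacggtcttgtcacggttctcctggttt
Oxtr E-box site: cgggccccgcccCACGTGccacactttaaa

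Motifs were searched on both strands of the 250 bases before the RefSeq start (chr6:112489826-112490075), a start that lies inside GENCODE exon 1. The E-box matched once, 38 bases before that start, and 6.02% of all 32851 such windows hold one. The GC box GGGGCGGGG matched once on the opposite strand, sharing 1 base with the E-box, and 10.4% of windows hold it. The oestrogen response element core GGTCA also matched once, as it does somewhere in 35.2% of windows. The cAMP response element TGACGTCA (1.55% of windows) and its shorter core TGACG (17.8%) had 0 matches, as had the AP-1 motif TGANTCA (6.75%) and the C/EBP core TTGCNNAA (9.56%). These matches describe letters in the sequence and were not tested as binding sites.

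Total counts ran from 16584117 to 24988880 per library, so that 3 counts corresponded to between 0.12 and 0.274 CPM, the read count scaled to a common library size by the TMM method. Correlations of log2 CPM between libraries lay between 0.847 and 0.967. All 10 β-cell markers, among them Ins1, Ins2, Mafa and Pdx1, were detected in every group. Insulin transcripts took 40.3% to 51.1% of counts in 21 libraries and 69.4% in refed DT mouse 13, whose TMM factor was 0.566. An earlier analysis of these data had set refed DT mice 13 and 20 apart.

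In fasted control mice the Oxtr level was low in all 5 libraries. It was 1.11 CPM in mouse 1 (23 counts), 0.698 in mouse 2 (12 counts), 4.88 in mouse 3 (110 counts), 2.13 in mouse 4 (45 counts) and 1.5 in mouse 5 (36 counts). Mouse 3 stood highest, and the mean was 2.06 ± 1.66 CPM (SD, n = 5).

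Fasted DT mice had the lowest levels of the study. Oxtr was at 0.873 CPM in mouse 6 (16 counts), 0.179 in mouse 7 (3 counts), 0.0529 in mouse 8 (1 count), 0.316 in mouse 9 (7 counts), 1.72 in mouse 10 (43 counts) and 2.14 in mouse 11 (53 counts). The highest of these libraries lay 40.5-fold above the lowest, although the single count of mouse 8 has a 95% Poisson interval from 0.00134 to 0.295 CPM, which covers counting error only. The mean was 0.881 ± 0.872 CPM (SD, n = 6).

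After 2 h of refeeding, Oxtr was above 19 CPM in 4 of 5 control mice. Levels were 25.2 CPM in mouse 12 (597 counts), 22.9 in mouse 18 (504 counts), 22.4 in mouse 19 (483 counts), 5.75 in mouse 21 (122 counts) and 19.9 in mouse 22 (307 counts). Apart from mouse 21 these libraries lay close together, and the mean was 19.2 ± 7.77 CPM (SD, n = 5).

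Refed DT mice were spread much more widely. Oxtr was at 3.38 CPM in mouse 13 (37 counts), 25.7 in mouse 14 (520 counts), 4.89 in mouse 15 (100 counts), 8.11 in mouse 16 (201 counts), 9.91 in mouse 17 (200 counts) and 41.1 in mouse 20 (864 counts). Mouse 20 held the highest level of all 22 libraries and mouse 13 the lowest of the refed ones. The mean was 15.5 ± 14.9 CPM (SD, n = 6), and the median of 9.01 CPM lay below the 22.4 CPM of refed control mice.

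**Figure D1:**
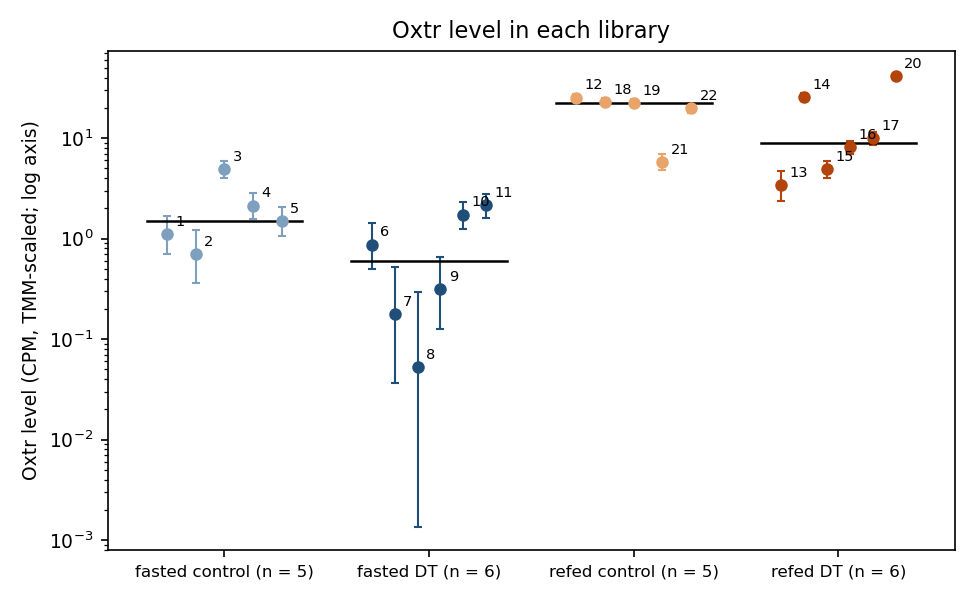
Oxtr level in each library (points, CPM on a log axis, with 95% Poisson intervals as bars) by group, with the group median as a line and the mouse number beside each point. All 5 refed control libraries lie above the fasted control ones, and the refed DT libraries run from 3.38 to 41.1 CPM.

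By mean level the groups therefore ran from refed control through refed DT and fasted control down to fasted DT. The refed groups overlapped: all 5 refed control libraries lay inside the range of the refed DT libraries. Of the 30 pairs of a refed DT and a fasted control library, the refed one was higher in 29, the exception being refed DT mouse 13 against fasted control mouse 3. The fasted groups overlapped as well, with 4 of 5 control libraries inside the DT range.

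Within a treatment, the fed states did not overlap. Refed control libraries were higher than fasted control libraries in 25 of 25 pairs, and refed DT libraries higher than fasted DT libraries in 36 of 36. Such a separation, refed above fasted, was found for 10.4% of tested genes in control mice and for 4% in DT mice. On the plain total count, refed DT mouse 13 fell to 1.91 CPM, below the 2.33 CPM of the highest fasted DT library, which left 35 of 36 pairs. With size factors of DESeq2 or without the insulin counts it was again 36 of 36. In bulk libraries such as these, fewer cells that contain a transcript and less transcript per cell cannot be told apart.

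The fitted refeeding difference of Oxtr was 3.21 on the log2 scale in control mice (SE 0.77), or 9.23-fold. In DT mice it was 4.08 (SE 0.75), or 17-fold. These were the 20th and the 6th largest increases among the 14064 genes tested. Leaving out 1 library at a time gave 3.00 to 3.81 in control mice and 3.51 to 4.56 in DT mice. The comparison of fed states called 23.3% of tested genes in control mice and 24.4% in DT mice with edgeR's quasi-likelihood test at an adjusted p of 0.05, and Oxtr, chosen with this difference known, is not counted with them.

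Between DT and control mice the fitted Oxtr difference was -1.18 (SE 0.74) in the fasted state and -0.31 (SE 0.66) in the refed state. The refeeding difference was larger in DT mice than in control mice by 0.88 (SE 1.00). Each of these depended on single libraries. Without fasted control mouse 3 the fasted difference was -0.59, and without fasted DT mouse 11 it was -1.66. The refed difference was -0.88 without refed DT mouse 20 and -0.09 without refed DT mouse 13. The interaction was 0.28 without fasted control mouse 3 and 1.36 without fasted DT mouse 11. Across all genes the same comparisons called 0.0284% (fasted), 0.0356% (refed) and 0.00711% (interaction).

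The wide spread among refed DT mice was set beside other genes that responded to refeeding in controls. Over 339 genes that rose by more than 1 on the log2 scale in refed controls, the median level above the fasted DT mean was 0.793 in mouse 13, 0.956 in mouse 14, 0.845 in mouse 15, 1.123 in mouse 16, 1.009 in mouse 17 and 1.167 in mouse 20. Oxtr stood 2.446, 5.336, 2.965, 3.684, 3.971 and 6.011 above its fasted DT mean in the same mice. All 6 lay above the fasted DT libraries, where the median ran from -0.171 to 0.176, and mice 13 and 15 were lowest and mouse 20 highest by either measure. Over 737 genes that fell by more than 1 in refed controls, the medians were -1.095 in mouse 13, -0.981 in mouse 14, -0.921 in mouse 15, -1.181 in mouse 16, -1.078 in mouse 17 and -1.211 in mouse 20. There mouse 13 was not among the weakest, and mouse 20 was again the strongest.

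Acinar transcripts ran largely opposite to Oxtr within the refed groups and among fasted control mice. The summed level of 10 markers of exocrine acinar cells, such as Cpa1, Prss2 and Pnlip, was 949 CPM in refed control mouse 12, 8790 in mouse 18, 9050 in mouse 19, 11400 in mouse 22 and 16300 in mouse 21, the exact reverse of the Oxtr order. In refed DT mice it was 47.5 CPM in mouse 20, 3420 in mouse 14, 4950 in mouse 17, 7760 in mouse 16, 24900 in mouse 15 and 14200 in mouse 13, again the reverse of Oxtr except that mice 13 and 15 changed places. Fasted control mice ran from 92.4 CPM in mouse 3, which had the most Oxtr, to 10200 in mouse 2, which had the least. In fasted DT mice the order did not hold, since mouse 8 had both the least acinar signal (75.9 CPM) and the least Oxtr.

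The 9 acinar markers that could be tested had median refeeding differences of 1.01 in control and 1.30 in DT mice. By edgeR 0 of them were called and 0 passed an unadjusted p of 0.05 in either treatment, and DESeq2 and limma voom called 0. A fit with the acinar level as a covariate, an alternative added after the data were seen, gave Oxtr a slope of -0.28 per log2 unit of acinar signal (SE 0.08). In it the refeeding difference of Oxtr was 3.89 in control and 4.06 in DT mice. The DT difference in refed mice became -0.89 and the interaction 0.17.

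**Figure D2:**
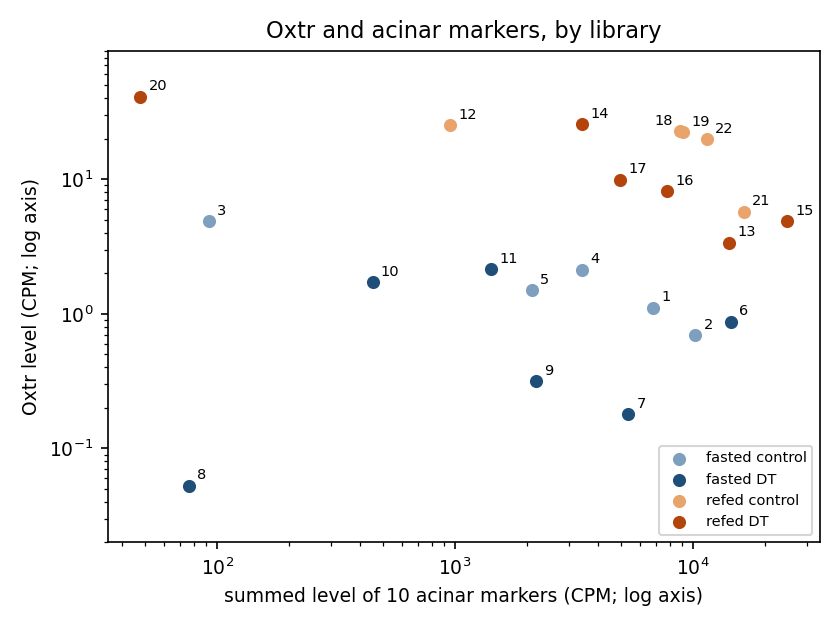
Oxtr level against the summed level of 10 acinar markers in each library (both in CPM on log axes; colours give the group, numbers the mouse). Within the refed groups libraries with more acinar signal have less Oxtr, apart from DT mice 13 and 15, where mouse 15 has the most acinar signal (24900 CPM) but more Oxtr than mouse 13.

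Markers of stromal and vascular cells were sparse. The sum of 11 smooth muscle, pericyte and stellate markers reached 2.91 CPM in fasted and 6.95 CPM in refed control mice, and 20.1 and 12.6 CPM in fasted and refed DT mice. Refed control mouse 12, with 25.2 CPM of Oxtr, had 0.0423 CPM of these markers, while refed DT mouse 20 had the 12.6 CPM. Among them Pdgfrb was at 0 in fasted control, Cspg4 in fasted DT and Lum in refed control mice. The sum of 7 endothelial markers stayed between 3.63 and 11 CPM in all groups, with Cdh5 at 0 in fasted control mice. The sum of 9 immune markers reached 342 CPM in refed DT mouse 20, against 22.1 to 44.2 CPM in refed control mice, and the part of these cells in its Oxtr level was not tested.

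Among markers of the endocrine cells targeted by the toxin, the hormone genes had lower mean levels in DT than in control mice. Somatostatin, Sst, lay between 13.4 and 43.4 CPM in control mice when fasted and between 29.8 and 71.5 CPM when refed, against at most 4.71 and 0.494 CPM in DT mice, with no overlap. By edgeR it was called in both states (adjusted p 0.0390 fasted and 0.00288 refed). The fasted call was lost in 18 of 22 fits with 1 library left out (up to 0.173), and kept without fasted control mouse 3, fasted DT mouse 8 or refed DT mouse 13 or 14, while the refed call was lost in 0. Glucagon, Gcg, averaged 87.6 and 130 CPM in fasted and refed control mice and 0.264 and 4.62 CPM in DT mice, without overlap and not called (adjusted p 0.0630 and 0.178). Ppy averaged 18.7 and 42.1 CPM against 4.19 and 15.2 CPM, overlapped and was not called (adjusted p 0.451 and 0.510).

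Whole marker lists were also summed. The sum of 6 δ-cell markers ran from 36.9 to 83.8 CPM in refed control and from 4.79 to 29.7 CPM in refed DT mice, and from 20 to 77.1 and 12.9 to 46.3 CPM in the fasted groups, with Ghsr at 0 in every group but refed control. The 8 α-cell markers summed to 348 to 747 CPM in refed control and 412 to 759 CPM in refed DT mice, and to 345 to 779 and 313 to 664 CPM in the fasted groups. Irx1 was at 0 in both DT groups and in fasted control mice. For the 4 γ-cell markers the sums were 46 to 272 CPM in refed control and 37.8 to 102 CPM in refed DT mice, and 20.5 to 129 and 12 to 87.6 CPM in the fasted groups. Oxtr reached above 25 CPM in refed libraries of both treatments, in control mouse 12 and in DT mice 14 and 20.

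Ligand transcripts were at or near 0. Oxt, the oxytocin precursor gene, had 1 count in 1 library, and Avp, the vasopressin precursor gene, had 0 counts in all 22, which allows up to 0.274 CPM in the library of the smallest scaled size. The vasopressin receptors were rare too. Avpr1a had 4 counts in all, Avpr1b 2 and Avpr2 3, so of the 4 receptors of the family Oxtr alone had more than 4 counts.

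Lnpep, a membrane aminopeptidase that degrades oxytocin and vasopressin, was expressed evenly. Control mice had 14.9 ± 2.02 CPM when fasted and 15 ± 2.5 CPM when refed (SD, n = 5 each), and DT mice had 17.1 ± 3.13 and 16.6 ± 4.56 CPM (n = 6 each). The refeeding difference was 0.01 ± 0.18 (log2, SE) in control and -0.05 ± 0.16 in DT mice, not called by edgeR (adjusted p 0.970 and 0.856). Cd38, an ectoenzyme known to be needed for oxytocin release in the brain, averaged below 0.3 CPM in every group and was not called (0.07 ± 1.40 and -0.36 ± 1.30).

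Per kilobase of exon, the mean Oxtr level was 0.431 CPM in fasted and 4.01 CPM in refed control mice, and 0.184 and 3.24 CPM in fasted and refed DT mice. Among 24 tested receptors that couple to Gq or Gs this placed it 15th and 20th in the fasted groups and 9th in either refed group. Among the 13 that couple to Gq it moved from 9th and 11th to 4th. The incretin receptor Glp1r led with 144 CPM per kilobase in refed control mice. Above Oxtr in those mice also stood Gipr at 22.7, the calcium-sensing receptor Casr at 19.5, the glucagon receptor Gcgr at 19, the fatty acid receptor Ffar1 at 15.5, Gpr119 at 8.89, the purine receptor P2ry1 at 8.12 and Vipr1 at 7.98. Directly below it were the lysophosphatidic acid receptor Lpar1 at 3.12 and the muscarinic receptor Chrm3 at 2.24 CPM per kilobase.

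**Figure D3:**
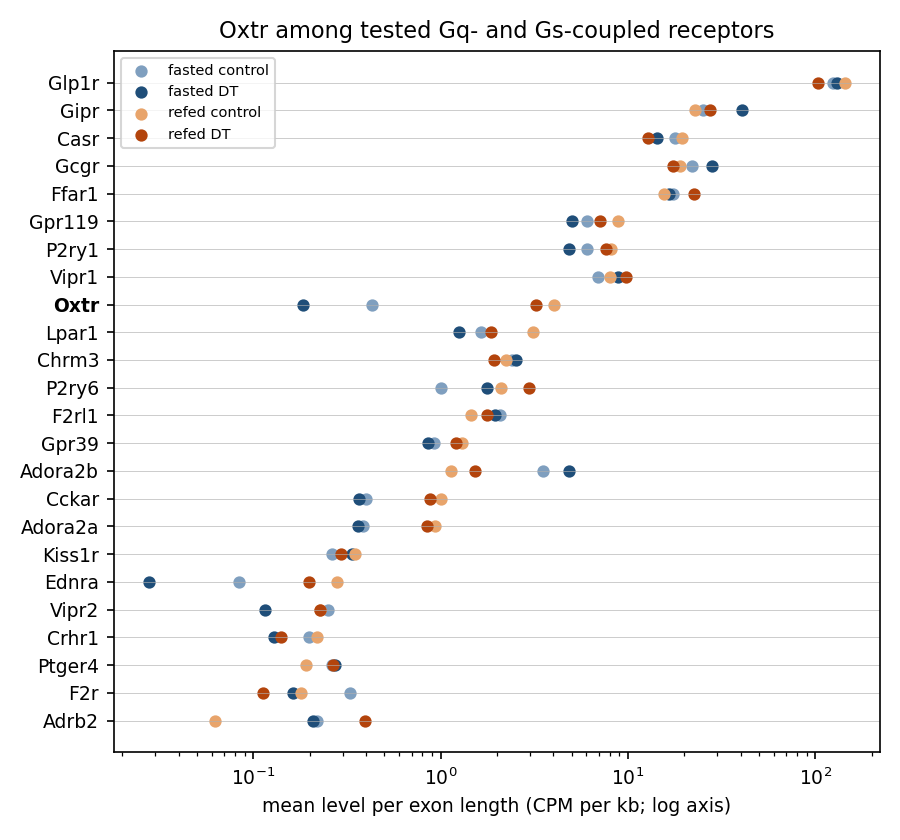
Mean level per kilobase of exon (CPM per kb, log axis) of 24 tested receptors coupled to Gq or Gs, 1 point per group. Oxtr runs from 0.184 in fasted DT to 4.01 in refed control mice, a wider span than for the receptors drawn next to it.

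The other Gq-coupled receptors were read as a list. Of 41 listed, 12 were tested, and refeeding raised 1 in each treatment and lowered 0. Of all genes, 10.9% were called higher and 12.3% lower in control mice, and 10.8% and 13.5% in DT mice. The number raised is near that share, and 12 genes are few for such a count. The 1 raised in DT mice, Ednra, passed the filter on low counts only through refed libraries, where it was higher. Its place in this count therefore carries little weight. Their median difference was 0.41 in control and 0.47 in DT mice, where all tested genes had medians of -0.04 and -0.06. At an unadjusted p of 0.05, 2 of the 12 passed in each treatment, where 34.6% of all genes passed in control and 36% in DT mice.

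Lpar1 was the receptor that rose in control mice. Its lowest, median and highest levels were 5.32, 6.36 and 9.54 CPM in fasted control and 10.5, 13.4 and 17.4 CPM in refed control mice, with no overlap. In fasted DT mice they were 4.82, 5.12 and 7.31, and in refed DT mice 4.2, 9.16 and 10.3 CPM, which overlapped. The edgeR log2 difference was 0.93 ± 0.23 (SE, adjusted p 0.00467) in control and 0.56 ± 0.21 (adjusted p 0.0535) in DT mice, and the interaction was not called. Without fasted control mouse 4 or 5, fasted DT mouse 6 or refed DT mouse 13 or 14, the DT difference was called as well (adjusted p between 0.00397 without mouse 13 and 0.0486 without mouse 5). Ednra, the endothelin A receptor, rose in DT mice by 2.81 ± 0.94 (edgeR adjusted p 0.0333) from a very low mean of 0.151 CPM to 1.09 CPM. It had 0 counts in 5 libraries, all of them fasted. Ednra thus passed the filter on low counts only through refed libraries, where it was higher, so its call is no support for a rise. Without any one of fasted DT mice 7, 8, 9 or 11 or refed DT mouse 20 its adjusted p lay above the threshold, at most at 0.102, and without refed DT mice 13 and 20 together it was 0.114.

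Receptors that couple to Gs, which raises cAMP, changed in either direction. Of 18 listed, 11 were tested. In control mice 1 was called higher and 1 lower, and in DT mice 1 higher and 3 lower, with median differences of -0.15 and 0.14. Of all genes, 10.9% were called higher and 12.3% lower in control mice, and 10.8% and 13.5% in DT mice, with medians of -0.04 and -0.06. Both adenosine receptors of the list were among them. Adora2b fell by 1.64 (SE 0.50) in control and by 1.67 (SE 0.45) in DT mice (edgeR adjusted p 0.0194 and 0.00913), and the control call was lost without fasted control mouse 2 or refed control mouse 12 (adjusted p up to 0.0550). Adora2a rose by 1.29 ± 0.44 and 1.24 ± 0.40 (adjusted p 0.0366 and 0.0276), calls lost without fasted control mouse 1, 3 or 5 or refed control mouse 12, 18, 21 or 22, and without fasted DT mouse 6, 10 or 11 or refed DT mouse 16 or 20 (adjusted p up to 0.0982 and 0.0673). Gcgr and Gipr, the glucagon and GIP receptors, fell in DT mice by 0.71 (SE 0.21, adjusted p 0.0161) and 0.57 (SE 0.20, adjusted p 0.0367), and for Gipr the call was lost without fasted control mouse 4, fasted DT mouse 8, 9, 10 or 11 or refed DT mouse 14, 15, 16 or 17 (up to 0.116).

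Downstream of the receptor, several genes were called lower. Among 21 tested of 23 listed Gq proteins, phospholipases and effectors, refeeding lowered 5 in control mice, where 12.3% of all genes were called lower. In DT mice it lowered 7, where 13.5% were called lower. The median differences were -0.26 and -0.49. The Gq proteins themselves, Gnaq and Gna11, were not called in either treatment.

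Prkcd, a protein kinase C that diacylglycerol activates, was the effector with the smallest p in control mice. Control mice had 25 ± 5.71 CPM when fasted and 11 ± 1.42 CPM when refed (SD, n = 5 each), and DT mice had 17.5 ± 4 and 11.6 ± 2.38 CPM (n = 6 each). It fell by 1.18 on the log2 scale in control mice (SE 0.19, edgeR adjusted p 0.000119) and by 0.60 in DT mice (SE 0.17, adjusted p 0.0131). Itpr1, an inositol trisphosphate receptor that releases calcium, fell by 0.72 (SE 0.20, adjusted p 0.0110) and 0.69 (SE 0.18, adjusted p 0.00774). Trpm4, a cation channel opened by calcium, fell by 0.70 (SE 0.17, adjusted p 0.00403) and 0.62 (SE 0.15, adjusted p 0.00508).

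Calls for several other effectors depended on single libraries. Prkcz, an atypical protein kinase C that diacylglycerol does not activate, fell by 0.58 in DT mice (SE 0.14, edgeR adjusted p 0.00376). In control mice it fell by 0.43 (SE 0.15, adjusted p 0.0420), lost without fasted control mouse 1, 3, 4 or 5 or refed control mouse 12, 18, 19 or 22 (up to 0.127). The phospholipase gene Plcb3 fell in control mice (adjusted p 0.0261), lost without fasted control mouse 3, 4 or 5 or refed control mouse 18, 19 or 22 (up to 0.0817). Plcb1 fell in DT mice (adjusted p 0.0329), lost without fasted control mouse 4, fasted DT mouse 7, 8, 9 or 11 or refed DT mouse 13, 14, 15 or 17 (up to 0.0919). Itpr3 fell in DT mice (adjusted p 0.0276), lost without fasted control mouse 4, fasted DT mouse 7 or 8 or refed DT mouse 13, 16 or 20 (up to 0.0887), and at 0.207 without refed DT mice 13 and 20 together. Trpm5, another calcium-activated channel, fell in DT mice by 1.53 (adjusted p 0.00889).

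Genes that switch receptors off were called in both directions. Of 16 listed kinases, arrestins and RGS proteins, 14 were tested. Refeeding lowered 4 and raised 1 in control mice and lowered 1 and raised 1 in DT mice, with medians of -0.14 and -0.13. Over all genes these shares were 12.3% lower and 10.9% higher in control and 13.5% and 10.8% in DT mice. Grk3, a kinase that phosphorylates activated receptors, stood at 101 ± 6.96 CPM in fasted control and 62.3 ± 10.5 in refed control mice (SD, n = 5 each), and at 92.5 ± 20.5 and 55.6 ± 5.83 in the DT groups (n = 6 each). It fell by 0.70 (SE 0.14, edgeR adjusted p 0.00128) and by 0.73 (SE 0.13, adjusted p 0.000371). Rgs17 rose by 1.00 ± 0.27 and 0.97 ± 0.25 (adjusted p 0.00958 and 0.00661).

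Rgs2, which accelerates the shut-off of Gq, had lowest, median and highest levels of 48.7, 68.1 and 148 CPM in fasted control mice. In refed control mice they were 12.5, 21.4 and 27.4 CPM, with no overlap. Fasted DT mice spread from 11.1 to 170 CPM and refed DT mice from 20 to 65.5 CPM, so that these groups overlapped. The edgeR difference was -1.91 ± 0.51 in control (adjusted p 0.00983) and -0.90 ± 0.45 in DT mice (adjusted p 0.162, but 0.0387 without fasted DT mouse 8). Arrb2, an arrestin, fell in control mice by 0.58 (SE 0.16, adjusted p 0.0107) and differed by -0.27 ± 0.15 in DT mice (adjusted p 0.188). Grk4 was the fourth of the genes that fell in control mice, from 2.41 to 1.24 CPM (adjusted p 0.0234), a call lost without fasted control mouse 1 or refed control mouse 19 (up to 0.0697).

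Early genes that calcium and ERK signalling are known to induce moved in opposite directions. Of 22 listed, 17 were tested, with 4 called higher and 5 lower in control mice and 6 higher and 3 lower in DT mice. Their medians were -0.29 and -0.35, where all genes had -0.04 and -0.06, with 10.9% called higher and 12.3% lower in control and 10.8% and 13.5% in DT mice. Spry4, an inhibitor that ERK signalling induces, rose from at most 2.68 CPM in fasted control to at least 9.17 in refed control mice, and from at most 2.73 to at least 6.81 CPM in DT mice. Its log2 differences were 3.40 ± 0.77 and 3.45 ± 0.71 (SE, edgeR adjusted p 0.00312 and 0.00134). Nr4a2, an orphan nuclear receptor, rose by 3.05 ± 0.51 (adjusted p 0.000219) and 2.09 ± 0.45 (adjusted p 0.00179), and Fosl2, an AP-1 subunit, by 1.72 ± 0.36 (adjusted p 0.00151) and 2.58 ± 0.34 (adjusted p 1.73e-05). Nr4a1 rose in DT mice by 3.36 ± 0.64 (adjusted p 0.000698) and differed by 1.65 ± 0.65 in control mice (adjusted p 0.0718, but 0.00922 without fasted control mouse 2 and 0.0479 without refed control mouse 12).

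The other early genes that rose encode phosphatases of the ERK pathway. Dusp6 rose in both treatments (edgeR adjusted p 0.0345 and 0.00247), the control call being lost without fasted control mouse 2, 4 or 5 or refed control mouse 18 or 19 (up to 0.120). Dusp4 rose in DT mice (adjusted p 0.00683).

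Well known immediate early genes were among those that fell. Egr1 fell by 1.25 (SE 0.37) in control and 1.11 (SE 0.34) in DT mice, with edgeR adjusted p of 0.0184 and 0.0209, lost without refed control mouse 19 (0.0525) or without fasted DT mouse 11 (0.0676). Junb fell in both treatments (adjusted p 0.00601 and 0.0239), the DT call being lost without fasted DT mouse 8 or 11 or refed DT mouse 13 or 14 (up to 0.0666). Fosb fell in control mice (adjusted p 0.0261), lost without fasted control mouse 1, 4 or 5 or refed control mouse 19, 21 or 22 (up to 0.0701). Arc fell in control mice (adjusted p 0.0261), lost without fasted control mouse 1 or 5 or refed control mouse 18, 19, 21 or 22 (up to 0.0802). Npas4 fell in both treatments (adjusted p 0.0482 and 0.0274). In DT mice that call was lost without fasted DT mouse 9 or 10 or refed DT mouse 13, 14, 15 or 17 (up to 0.0859). In control mice it was lost without any of fasted control mice 1, 2, 4 and 5, refed control mice 12, 19, 21 and 22, fasted DT mice 7, 9 and 11 and refed DT mice 14 and 17 (up to 0.110).

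Of 15 genes listed as regulators of Oxtr transcription, 12 were tested, with 1 called higher and 1 lower in either treatment. This is near the share of all genes, 10.9% higher and 12.3% lower in control and 10.8% and 13.5% in DT mice. The gene that rose was Crem, the cAMP response element modulator, whose products include the inducible repressor ICER. Its lowest, median and highest levels were 12, 12.3 and 15.1 CPM in fasted control mice against 36.5, 50.4 and 66.9 CPM in refed ones. In DT mice they were 6.75, 9.34 and 11.3 CPM fasted and 22.8, 60.1 and 67.6 CPM refed. The fed states were separate in both treatments, and mouse 13 was the lowest refed library, as for Oxtr. The log2 difference was 1.95 ± 0.23 in control (SE, edgeR adjusted p 5.18e-06) and 2.53 ± 0.21 in DT mice (adjusted p 6.4e-08).

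Irf1, an interferon-induced transcription factor, was the regulator that fell. It stood at 36.2 ± 3.84 CPM in fasted control and 17.2 ± 3.24 in refed control mice (SD, n = 5 each) and fell by 1.08 (SE 0.16, edgeR adjusted p 5.18e-05), and in DT mice by 0.89 (SE 0.14, adjusted p 0.000137). Creb1, Maff and Cebpb were not called. The oestrogen receptor gene Esr1 averaged 0.208 to 0.390 CPM, and Pgr, the progesterone receptor gene, had 0 counts in the table.

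Several refeeding calls also depended on the tool or the filter. With limma voom the adjusted p was 0.0732 for Adora2b, 0.0986 for Arc, 0.0526 for Dusp6 and 0.131 for Npas4 in control mice, and 0.0706 for Npas4 in DT mice. With DESeq2 it was 0.0538 for Gipr in DT mice. Without a filter on low counts, edgeR no longer called Prkcz, Adora2a, Plcb3, Grk4, Fosb, Egr1, Npas4, Arc and Dusp6 in control mice (0.0525 to 0.138) or Ednra, Gipr, Plcb1, Itpr3, Junb, Egr1 and Npas4 in DT mice (0.0554 to 0.102). With only the 2 DT groups in the fit, Ednra, Adora2a, Gipr, Plcb1, Egr1 and Npas4 were not called in DT mice (0.0525 to 0.0952). The acinar covariate ended the calls of Prkcz (0.0688) and Npas4 (0.0749) in control and of Gipr (0.0783) and Plcb1 (0.0517) in DT mice, and leaving out refed DT mice 13 and 20 ended that of Junb in DT mice (0.0603).

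Other differences passed the threshold under an alternative. With DESeq2, Nr4a1 was called in control mice (adjusted p 0.0353) and Lpar1 in DT mice (0.0220). With limma voom, Ednra (0.0252) and Trpm5 (0.0388) were called in control mice and Fosb (0.0142) in DT mice. Without refed DT mice 13 and 20, edgeR called Trpm5 in control mice (0.0300) and Arrb2 (0.0397), Lpar1 (0.0101) and Fosb (0.00777) in DT mice. Plcb1 was called in control mice without fasted control mouse 1 (0.0246), and Fosb in DT mice without refed DT mouse 13 (0.0191).

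Over all 7 lists, 89 members besides Oxtr were tested, with 25 called in control and 26 in DT mice by edgeR. At an unadjusted p of 0.05 this was 34.8% of members against 34.6% of all genes in control mice, and 38.2% against 36% in DT mice, so the lists as a whole stood near the background. Between DT and control mice edgeR called 0 members in the fasted state, 0 in the refed state and 0 in the interaction, with 10, 10 and 4 at an unadjusted p of 0.05. These were 11.2%, 11.2% and 4.49% of members, against 8.33%, 10% and 7.14% of all genes. With limma voom the adjusted count was also 0 in all 3, and DESeq2 called 1 member, Fosb, in the refed state.

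**Figure D4:**
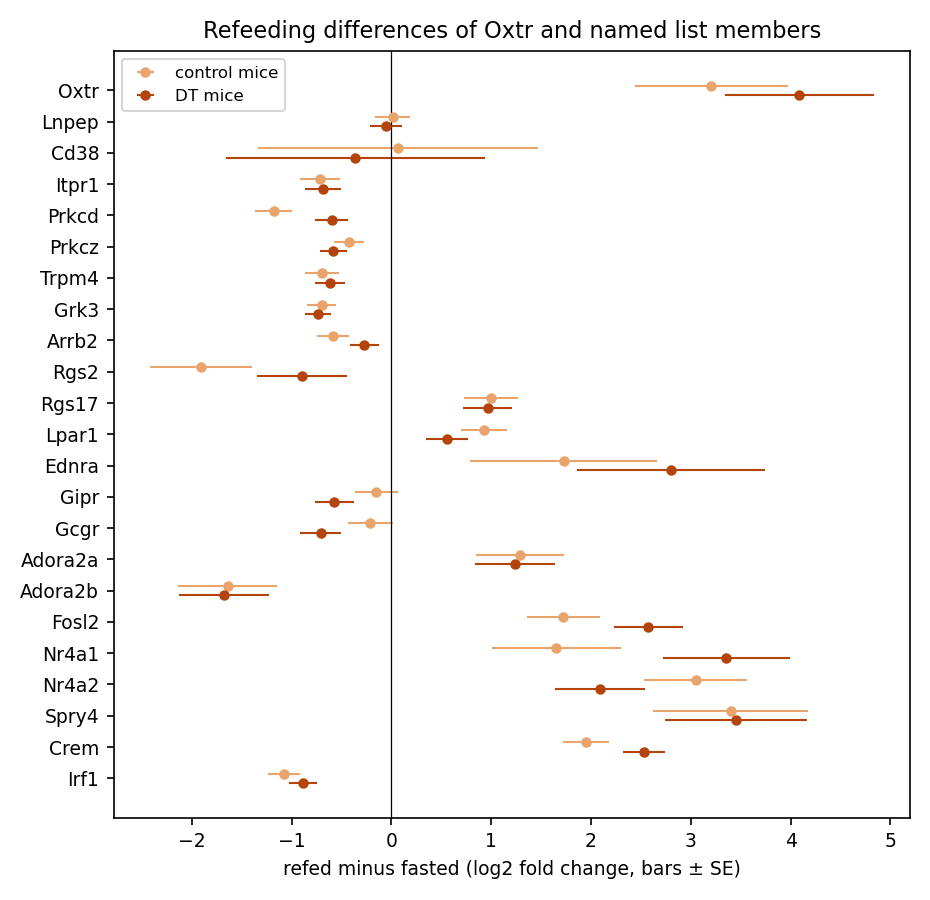
Refeeding difference (log2 fold change, points, with bars of 1 SE) of Oxtr and the named members of the lists, in control and DT mice. Oxtr (3.21 and 4.08) and Spry4 (3.40 and 3.45) lie farthest to the right, while Adora2b, Rgs2, Prkcd and Irf1 lie left of 0.

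The genes next to Oxtr were read for comparison. Cav3, the muscle caveolin gene, lies 0.811 kb away and had 0 counts, and Ssu2, at 85.7 kb, had 10 counts in all. Lmcd1, at 143 kb, had refeeding differences of 0.87 ± 0.34 and 0.73 ± 0.31 that were not called (edgeR adjusted p 0.0641 and 0.0880). Both passed the threshold without refed DT mouse 13 (0.0431 and 0.0358) and with DESeq2 (0.0358 and 0.0439). In control mice Lmcd1 also passed without fasted DT mouse 8, refed DT mouse 14 or refed DT mice 13 and 20. With only the control groups fitted it passed too (0.0158). In DT mice it also passed without fasted DT mouse 6 (0.0475). On the other side Rad18, at 130 kb, differed by 0.12 ± 0.36 and 0.58 ± 0.34 and was not called, except in DT mice without mouse 13 (adjusted p 0.00567), and Srgap3, at 228 kb, had 73 counts and was not tested. Thumpd3, at 556 kb, rose by 0.81 ± 0.19 and 0.63 ± 0.17 (adjusted p 0.00336 and 0.00999).

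Genes whose levels followed Oxtr most closely over the 22 libraries were found by Pearson correlation of log2 CPM. Because the libraries fall into 2 fed states, each value is given with those within the 11 fasted and the 11 refed libraries. Genes chosen for likeness carry no test, and all values share the libraries and their scaling. The fasted values include libraries with very few Oxtr counts: 3 in DT mouse 7, 1 in mouse 8 and 7 in mouse 9. Mouse 8 was also far below the other fasted DT mice for Tiparp (4.08 against 9.58 to 12.9 CPM) and Atp1b1 (61.8 against 113 to 157 CPM). The part of these libraries in the correlations was not tested. Over all tested genes the correlation with Oxtr had a median of -0.035, with 1% of genes below -0.785 and 1% above 0.784.

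Tiparp, which encodes a mono-ADP-ribosyltransferase, was most like Oxtr with 0.928 over all libraries, 0.851 within fasted and 0.716 within refed ones. Gde1, a glycerophosphodiester phosphodiesterase, followed with 0.927 (0.783 and 0.784), and the kinase gene Stk35 with 0.916 (0.787 and 0.649). Next came Tent5a with 0.910 (0.730 and 0.736) and Mfn1, which fuses mitochondrial outer membranes, with 0.905 (0.782 and 0.612). The other 5 were weaker within at least 1 fed state. The kinase gene Stk32a was at 0.890 (0.515 and 0.707) and the transcriptional coactivator Ppargc1a at 0.889 (0.700 and 0.603). Tigar, a regulator of glycolysis, was at 0.887 (0.651 and 0.678). The sodium pump subunit Atp1b1 was at 0.887 (0.787 and 0.551) and the tropomyosin gene Tpm4 at 0.883 (0.720 and 0.515). With Spearman correlation 8 of these 10 remained among the first 10, and without refed DT mice 13 and 20 it was 7.

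Levels ran most opposite to Oxtr for Rnf123, a ubiquitin ligase gene, at -0.899 over all libraries (-0.555 within fasted, -0.790 within refed). Cep70, a centrosomal protein gene, was at -0.893 (-0.542 and -0.733) and the RNA-binding protein gene Hnrnpr at -0.889 (-0.848 and -0.794). Cx3cl1, the chemokine fractalkine, was at -0.886 (-0.851 and -0.792) and Atf7ip at -0.880 (-0.333 and -0.767). The relation within a fed state was thus weak for Atf7ip among fasted libraries and close for Cx3cl1 and Hnrnpr in both.

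**Figure D5:**
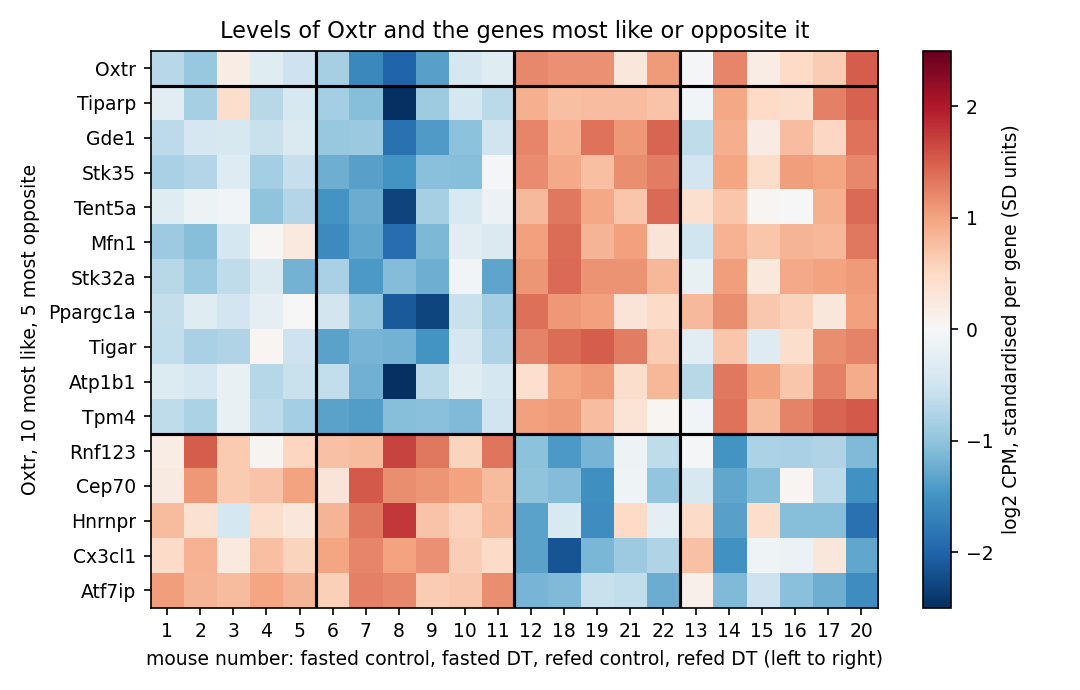
Log2 CPM of Oxtr, the 10 genes most like it and the 5 most opposite to it, standardised per gene (colour, in SD units), in the 22 libraries by group. Fasted DT mouse 8 is the lowest library for Oxtr and Tiparp (correlation 0.928), and refed DT mouse 13 is near the mean of all libraries for Oxtr.

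The promoter windows of the similar genes were searched for the motifs used for Oxtr. Windows existed for 9 of the 10 genes. The E-box, present in the Oxtr window, was found in 0 of the 9 (6.86% of 27025 genes with a window hold it). The core TGACG, absent from the Oxtr window, was found in 4, namely Mfn1, Ppargc1a, Tigar and Tpm4 (19.8% of genes). The GGTCA core was found in Gde1, Stk35 and Tpm4 (38.4% of genes), and the GC box in Tpm4 (11.8%).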

How the data were processed

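The authors deposited 1 table of raw read counts per gene for 22 libraries. Alignment and counting software named in the submitters' processing notes is STAR 2.7.2b and HTSeq 0.9.1, on GRCm38.p6. Strand setting and annotation are not given in the sources used here. Counts are of amplified cDNA without molecular identifiers, so intervals cover counting error only. The p-values judge group differences against the variation between libraries, 1 from each mouse, which includes differences in sorting and library preparation.

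Of the 52327 genes, 14064 passed filterByExpr and were fitted in edgeR 4.0.16 (R 4.3.3): TMM scaling, 1 coefficient per group over all 22 libraries, robust quasi-likelihood F tests and Benjamini-Hochberg adjustment over all tested genes (threshold 0.05). The method was tested on simulated data. DESeq2 1.42.0, limma 3.58.1 (voom), no filter, only the compared groups, and fits without libraries were alternatives. Levels are CPM on TMM-scaled totals as mean ± SD, and log2 values used a prior count of 2. Levels per kilobase used GENCODE exon lengths.

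Oxtr, the gene lists and the rules were chosen with earlier results of these data known. Lists are described by counts and medians. Named genes were the oxytocin and vasopressin system, up to 4 called members per list by smallest p, the 10 genes most like Oxtr and the 5 most opposite, and 3 neighbours on each side. Genes of counts of 5 or fewer were also named, and Plcb1, Itpr3, Trpm5 and Dusp4 were named after their values were seen. No protein sequence is printed, and some genes of these lists are not reported here.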

Additional observations from a re-analysis of the deposited data

Results flagged for a closer look

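In 216 groups of mice (54 named genes in 4 groups), 17 had 1 library whose gap to the others exceeded Dixon's 95% limit. Chance alone gives about 1 in 20, but only for genes not chosen by their values. Oxtr and many of the other genes were chosen by their values in these same libraries. The limit therefore only marks libraries here and is not used as a test. For Oxtr the library marked was refed control mouse 21 at 5.75 CPM, with the other 4 between 19.9 and 25.2 CPM.

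Refed DT mouse 13 stood lowest in 7 of them. It had 7.04 CPM of Prkcz (others 10.8 to 13.2), 1.55 of Dusp4 (10.4 to 17.2), 1.74 of Dusp6 (8.8 to 19.8), 22.5 of Mfn1 (30.5 to 35.7), 136 of Atp1b1 (227 to 287), 0.64 of Rad18 (3.21 to 7.27) and 17.6 CPM of Thumpd3 (31.4 to 38.2). Insulin transcripts took 69.4% of the counts of this library, and whether that has a part in these values was not tested.

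Among fasted DT mice, mouse 8 was low for Tiparp at 4.08 CPM (others 9.58 to 12.9) and Atp1b1 at 61.8 CPM (113 to 157). Mouse 6 was high for Lpar1 at 7.31 CPM (4.82 to 5.24) and low for Fosl2 at 0.546 CPM (1.49 to 2.18), and mouse 11 was high for Stk35 at 31.1 CPM (13.9 to 17.9). In refed DT mice, mouse 16 had 44.1 CPM of Grk3 (55.9 to 59.6) and mouse 17 had 0.496 CPM of Adora2b (2.42 to 4.35). Fasted control mouse 2 had 50 CPM of Nr4a1 (8.66 to 13.6), and fasted control mouse 1 had 1.21 CPM of Cd38, where the other 4 had 0 counts.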

How the results depend on the processing

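No paired analysis was possible because every mouse number occurs once. The Oxtr refeeding difference kept its direction in every fit run. The counts called by refeeding, 3272 in control and 3426 in DT mice, stayed within 1.5 times of these. The 4 genes called between DT and control in fasted mice became 43 with DESeq2, 0 without a filter, 0 with only the 2 groups and 26 without refed DT mice 13 and 20, and 0 to 19 with 1 library left out (19 without refed DT mouse 13, 11 without fasted control mouse 3). The 5 in refed mice became 81 with DESeq2, 1 with voom, 2 with only the 2 groups, 175 without refed DT mice 13 and 20, and 9 with the acinar covariate added after seeing the data, and 1 to 52 with 1 library left out (52 without refed DT mouse 20, 13 without mouse 13). The interaction, with 1 gene, had 21 with DESeq2, 0 with voom, 14 without mice 13 and 20, and 1 to 2 with 1 library left out. The cause was not tested. Leaving insulin out of the totals raised mean Oxtr to 4.14 CPM in fasted and 36.2 CPM in refed control mice, since fewer counts remain in the denominator. Differences near 0 changed sign. With 1 library left out, Lnpep ran from -0.05 to 0.09 in control and from -0.14 to 0.03 in DT mice (0.00 without a filter), Cd38 from -0.45 to 5.41 in control mice (0.12 with voom in DT mice), Rad18 from -0.01 to 0.32 in control mice and Plcb3 from -0.09 to 0.06 in DT mice (0.01 with DESeq2, 0.03 without a filter). Over all settings, the named genes' calls were lost 146 times and gained 30 times, with the libraries named beside them. With 1 to 53 counts of Oxtr in fasted DT mice, depth limits the size of their differences.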
